A study of Mus musculus with 12 samples.

Results

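The 32 genes described here are interferon response genes of the mouse, chosen by symbol and matched by Ensembl ID to the count table, where all 32 were found among 52550 gene IDs. They were measured by RNA sequencing of polyadenylated RNA in 12 adipose libraries, 3 in each of 4 groups. The tested mice were Mcu fl/fl AKO, described in the study's design as an adipose tissue-specific knockout of Mcu, and the controls were Mcu fl/fl mice, so all 12 libraries come from animals with floxed Mcu alleles. Both genotypes were compared on a high-fat diet. The groups are BAT AKO and BAT control (brown adipose tissue) and WAT AKO and WAT control (inguinal white adipose tissue). Mcu encodes the pore of the mitochondrial calcium uniporter. The sources used here do not give the driver of the deletion, the floxed exon, or the strain, age and sex of these mice. Nor do the labels say whether each replicate is its own animal, so every p-value speaks only of the spread among libraries, which may be technical.

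Interferons are secreted proteins made mainly when a cell detects viral or misplaced nucleic acid. Type I interferons and interferon gamma bind receptors that act through Janus kinases and STAT proteins, and a complex that holds Stat2 and Irf9 switches on genes that carry an interferon-stimulated response element near their start. The products sense foreign nucleic acid, block translation or assembly of viruses, or prepare peptides for presentation to T cells. Macrophages, lymphocytes, endothelial cells and adipocytes can all express such genes, and in a piece of adipose tissue their RNA is read as a sum.

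The libraries held 15692588 to 18967159 counts. Mcu itself stood at 9.47, 14.6 and 8.29 CPM (read counts scaled to library size) in BAT AKO, against 26.6, 28.8 and 24 CPM in BAT control, and at 10.1, 12.5 and 10.9 CPM in WAT AKO, against 18, 18.8 and 18.8 CPM in WAT control. The genotypes did not overlap in either tissue, although the adjusted p was 0.202 in BAT and 0.0799 in WAT. Depot markers went with the labels: 4 of 5 brown adipocyte genes were higher and 4 of 4 genes typical of inguinal fat were lower in BAT than in WAT, in AKO and in control libraries alike. WAT control 2 stood apart from the other 2 WAT control libraries in lymphocyte RNA, with a summed level of 8 B lymphocyte markers of 346 CPM against 3.26 and 2.63 CPM, while the WAT AKO libraries held 581, 427 and 1017 CPM and no BAT library more than 11.8 CPM. Summed skeletal muscle markers were highest in WAT AKO 2 (15921 CPM), BAT AKO 2 (13950 CPM), WAT control 1 (10075 CPM), WAT control 2 (2229 CPM) and BAT control 1 (1559 CPM), and reached at most 494 CPM in the other 7 libraries. In tissue RNA, fewer cells of a type and less RNA per cell cannot be told apart.

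Promoter windows of 300 bases (250 before to 50 after the annotated start, RefSeq, GRCm38.p6) were at hand for 26 of the 32 genes. Zbp1, Oas2, Usp18, Mx1, Mx2 and Rtp4 had none in the table used. The core of the interferon-stimulated response element was searched as 2 copies of GAAA with any 2 bases between them, on both strands, matches that overlap each other included. It occurred in 15 of the 26 genes (57.7%), against 3.99% of all 27025 genes with a window. The STAT palindrome, TTC and GAA with any 3 bases between them, searched in the same way, occurred in 8 of the 26 (30.8%), against 9.55% of all genes. A match describes letters in a window and not a bound site. The windows of 5 genes that behave differently in the data are shown, each read in the direction of its own gene, with every match to the response element core, read as GAAA or from the other strand as TTTC, in capitals. They are Isg15 (chr4:156200769-156201068, minus strand), Ifit3 (chr19:34583279-34583578, plus strand), Oas1a (chr5:120907476-120907775, minus strand), Rsad2 (chr12:26456403-26456702, minus strand) and Tap1 (chr17:34187306-34187605, plus strand).
Isg15: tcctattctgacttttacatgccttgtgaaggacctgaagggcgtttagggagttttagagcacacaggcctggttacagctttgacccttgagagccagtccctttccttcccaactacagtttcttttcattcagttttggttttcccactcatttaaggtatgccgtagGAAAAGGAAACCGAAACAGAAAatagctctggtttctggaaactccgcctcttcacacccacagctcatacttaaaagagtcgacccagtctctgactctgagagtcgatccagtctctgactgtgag
Ifit3: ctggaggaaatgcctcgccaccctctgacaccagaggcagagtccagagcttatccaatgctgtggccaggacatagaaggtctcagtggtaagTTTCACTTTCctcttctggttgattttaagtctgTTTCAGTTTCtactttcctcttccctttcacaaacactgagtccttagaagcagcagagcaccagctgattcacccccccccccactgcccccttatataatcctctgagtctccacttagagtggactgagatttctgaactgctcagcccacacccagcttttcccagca
Oas1a: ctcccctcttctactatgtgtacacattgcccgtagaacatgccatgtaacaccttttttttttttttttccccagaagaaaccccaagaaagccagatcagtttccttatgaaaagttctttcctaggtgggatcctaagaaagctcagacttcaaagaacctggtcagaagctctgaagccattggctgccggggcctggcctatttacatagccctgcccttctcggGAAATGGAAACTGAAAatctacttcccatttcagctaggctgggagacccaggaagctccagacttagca
Rsad2: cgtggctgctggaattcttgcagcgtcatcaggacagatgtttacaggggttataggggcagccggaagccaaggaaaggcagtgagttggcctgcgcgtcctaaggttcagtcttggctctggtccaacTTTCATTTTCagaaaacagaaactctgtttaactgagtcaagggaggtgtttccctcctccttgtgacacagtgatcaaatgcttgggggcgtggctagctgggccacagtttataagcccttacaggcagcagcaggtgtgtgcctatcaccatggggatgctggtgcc
Tap1: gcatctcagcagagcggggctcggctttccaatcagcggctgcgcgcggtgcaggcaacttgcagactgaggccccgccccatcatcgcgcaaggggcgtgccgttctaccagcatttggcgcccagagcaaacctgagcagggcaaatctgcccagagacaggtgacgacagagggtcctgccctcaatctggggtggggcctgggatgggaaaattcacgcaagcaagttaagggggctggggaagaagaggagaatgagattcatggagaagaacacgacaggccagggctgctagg
In Isg15 3 overlapping matches begin 78, 72 and 66 bases before the start, and in Oas1a 2 overlapping matches begin 20 and 14 bases before it. The 2 matches of Ifit3 lie apart, beginning 156 and 122 bases before the start. Rsad2 has 1 match, 120 bases before the start. The Tap1 window has none, and it overlaps the window of Psmb9 (chr17:34187281-34187580, minus strand), which has none either, since both genes start from a shared stretch in opposite directions. These 5 genes span the patterns in the data: Ifit3 and Oas1a were lower in BAT in both genotypes, Rsad2 was higher in BAT among AKO libraries, Isg15 was called in no comparison, and Tap1 had the smallest p of the set for the genotype in WAT.

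Every one of the 32 genes had reads in all 12 libraries, with 2 to 3849 counts. Between genes, levels were compared only by the authors' length-scaled values (FPKM). On that scale Bst2, which encodes tetherin, a membrane protein that holds budding virus at the cell surface, was the most abundant in all 4 groups, at 32.8 ± 6.99 FPKM in BAT AKO, 37.9 ± 5.54 in BAT control, 64.4 ± 16.7 in WAT AKO and 52.7 ± 5.78 in WAT control (SD, n = 3 each). Oas3 was the least abundant in all 4 groups, at 0.0427 ± 0.022 FPKM in BAT AKO, 0.068 ± 0.0258 in BAT control, 0.556 ± 0.212 in WAT AKO and 0.404 ± 0.122 in WAT control. The guanylate-binding protein Gbp2 and the transcription factor Irf1 held places 2 to 4 in every group. Rsad2 and Tap1 changed place between depots: Rsad2 ranked 7 in BAT AKO and 9 in BAT control, against 27 in WAT AKO and 19 in WAT control, and Tap1 ranked 8 in both BAT groups, against 2 in WAT AKO and 6 in WAT control.

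**Figure D1:**
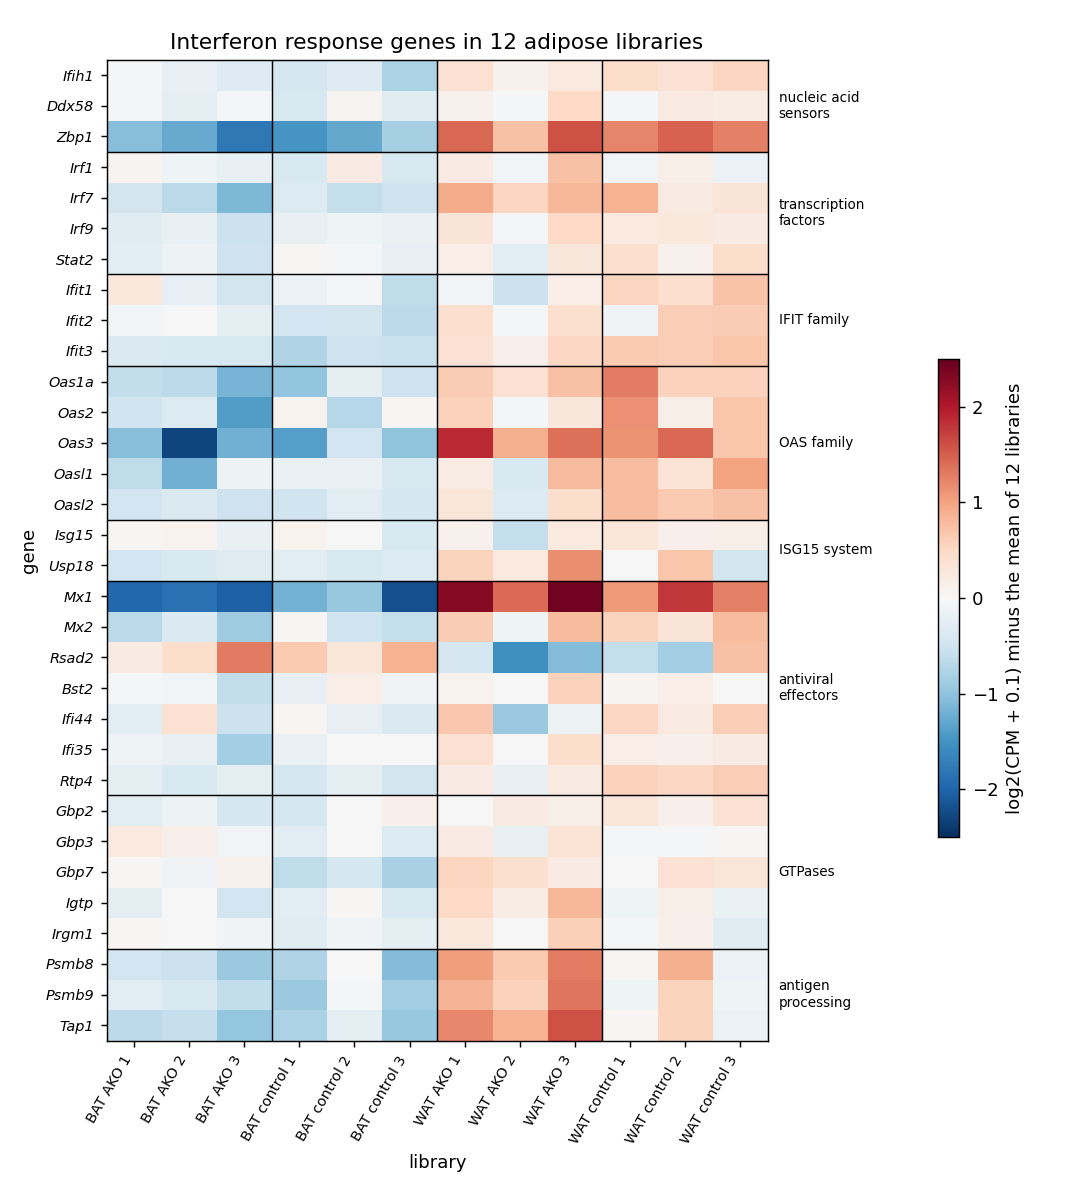
Level of the 32 genes (down the page, grouped by role) in the 12 libraries (across), as log2(CPM + 0.1) minus the mean of that gene over the 12 libraries, so that red is above and blue below the gene's own mean. Most genes are blue in the 6 BAT libraries and red in the 6 WAT libraries, Rsad2 runs the other way, and Tap1 is redder in each of the 3 WAT AKO libraries than in any other library.

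Of the genes called between the depots, every one but Rsad2 was lower in BAT than in WAT. Among AKO libraries 16 of the 32 genes were lower in BAT than in WAT and 1, Rsad2, was higher, where 30.5% of all 15671 genes tested were lower and 28.8% higher. The median log2 fold change of the 32 was -0.55, against -0.02 over all genes. Among control libraries 19 were lower and 0 higher, where 25.7% of 15031 genes were lower and 24.4% higher, and the median was -0.82, against -0.04 over all genes, with 31 of 32 negative. The BAT libraries all lay below the WAT libraries for 21 of the 32 genes among AKO libraries and 22 among controls, where 37.4% and 30.8% of all genes did, and all above for 1 and 0, where 30.1% and 30.5% did. Calls rest on edgeR's quasi-likelihood test with Benjamini-Hochberg adjustment over all genes tested, at an adjusted p under 0.05, and every adjusted p given in the text comes from it unless another tool is named. The AKO and control depot comparisons share no library. Lower in both were 11 genes, which is 68.8% of the calls among AKO libraries and 57.9% of those among controls. For all genes tested in both comparisons those shares were 66.7% and 74.9%.

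The depot counts moved with the scaling and with some libraries. TMM scaling (trimmed mean of M values) holds the bulk of genes level, and on total counts without it the median of all genes shifted to -0.60 among AKO libraries and to -0.40 among controls. All-gene calls then split into 2068 higher and 8759 lower in place of 4510 and 4781 among AKO libraries, and into 2107 and 6253 in place of 3666 and 3858 among controls. On that scale 28 of the 32 genes were lower in BAT among AKO libraries and 29 among controls, with medians of -1.14 and -1.19. Leaving out BAT control 3 left 12 genes lower among controls, the fewest of the 6 such fits, where 20.3% of all genes were lower. Leaving out BAT control 1 and WAT control 1, the control library with most muscle RNA in each depot, left 10, where 15.4% of all genes were lower. Mx1 and Oas3 passed the filter on low counts only through their WAT level and so had to be lower in BAT; of the other 30 genes, 14 were lower among AKO libraries and 17 among controls, with medians of -0.46 and -0.76. Genes lower in BAT in every fit that left out a library numbered 10 among AKO libraries and 12 among controls. Both counts include Mx1 and Oas3, and the matching share of all genes is not given here.

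Macrophage RNA moved the same way as the depot difference. Summed over 9 macrophage markers it stood at 228 to 295 CPM in BAT AKO and 299.6 to 409 CPM in BAT control, against 1038 to 1225 CPM in WAT AKO and 1224 to 1692 CPM in WAT control, with 0 markers at 0 counts in any library. All 9 macrophage markers were lower in BAT in both genotypes, with median log2 fold changes of -1.71 among AKO libraries and -1.95 among controls. All T and NK lymphocyte markers that passed the filter were lower too, 11 of 11 among AKO libraries and 8 of 8 among controls. Among AKO libraries only Lck and Trac reached the filter's level in all 3 BAT libraries, and among controls none of these markers did. The others passed through their WAT level and so had to be lower in BAT. Of the B lymphocyte markers tested, 8 of 8 were called lower among AKO libraries and 0 of 3 among controls. Endothelial markers ran the other way, 5 of 6 higher in BAT among AKO libraries and 1 of 6 among controls. The part of these cell types in the depot difference was not tested.

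**Figure D2:**
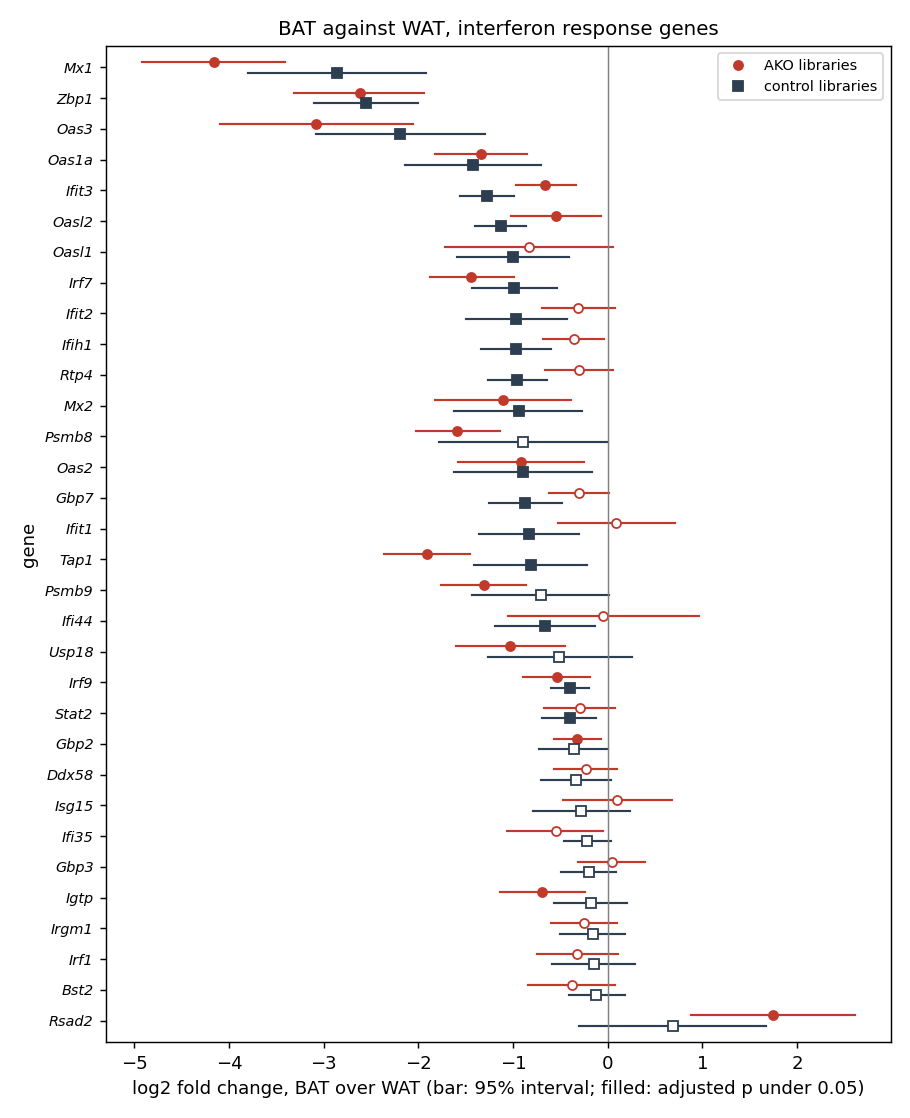
Log2 fold change of BAT over WAT for each of the 32 genes, among AKO libraries (red circles, 3 BAT against 3 WAT) and among control libraries (dark squares, 3 against 3), with bars for the 95% interval and filled symbols for an adjusted p under 0.05. Nearly all symbols lie left of 0, Mx1, Zbp1 and Oas3 farthest, and Rsad2 lies right of 0. Mx1 and Oas3 passed the filter only through their WAT level.

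Of the 3 sensors of nucleic acid, Zbp1 differed most. Zbp1 binds nucleic acid in the left-handed Z form and can start necroptosis. It was at 2.2, 1.91 and 1.3 CPM in BAT AKO and 1.64, 1.9 and 2.63 CPM in BAT control, against 13, 7.92 and 14.4 CPM in WAT AKO and 11.2, 13.3 and 11.4 CPM in WAT control. Zbp1 lies at chr2:173206612-173218923 on the minus strand (GRCm38), and no BAT library came near a WAT library. The log2 fold change of BAT over WAT was -2.62 (SE 0.294, adjusted p 0.000211) among AKO libraries and -2.55 (SE 0.231, adjusted p 0.000228) among controls, the smallest p of the 32 genes among controls. Ifih1, the sensor of long double-stranded RNA, was at 15.4, 13.5 and 12.5 CPM in BAT AKO and 11.6, 12.5 and 8.97 CPM in BAT control, against 20.4, 16.9 and 18.4 CPM in WAT AKO and 21.6, 20.1 and 22.6 CPM in WAT control. Its log2 fold change was -0.36 among AKO libraries (SE 0.136, adjusted p 0.0524), and it was lower in BAT among controls (-0.97, SE 0.155, adjusted p 0.00238). Ddx58, the sensor RIG-I, had -0.23 among AKO libraries (adjusted p 0.2) and -0.34 among controls (adjusted p 0.108; 0.039 with the replicate number as a block).

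The 4 transcription factors were led by Irf7, the factor that drives transcription of interferon alpha genes. Irf7 stood at 17.4, 14.9 and 10.9 CPM in BAT AKO and 18.9, 15.8 and 16.7 CPM in BAT control, against 45.9, 34.7 and 42.6 CPM in WAT AKO and 43.6, 28.1 and 29.8 CPM in WAT control. The 6 BAT libraries all lay below the 6 WAT libraries, with log2 fold changes of -1.44 (SE 0.189, adjusted p 0.000476) among AKO libraries and -0.99 (SE 0.187, adjusted p 0.00479) among controls. Irf9, the DNA-binding partner of Stat2, differed by less, -0.54 (SE 0.151, adjusted p 0.0162) and -0.40 (SE 0.0847, adjusted p 0.00784). Stat2 had -0.29 among AKO libraries (adjusted p 0.151) and was lower among controls (-0.40, adjusted p 0.0297). Irf1, which answers mainly to interferon gamma, was called in neither comparison, with -0.32 among AKO libraries and -0.15 among controls.

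The IFIT proteins bind RNA that lacks the host's cap marks and hold back its translation. Their genes lie side by side on chromosome 19. In BAT 1 of 3 was lower among AKO libraries and 3 of 3 among controls. Ifit3 stood at 11.3, 11.2 and 11 CPM in BAT AKO and 8.65, 10.1 and 9.84 CPM in BAT control, against 18.7, 15.8 and 21 CPM in WAT AKO and 22.9, 22.3 and 23.6 CPM in WAT control. Replicates of Ifit3 lay close together and the depots did not overlap. Its log2 fold change was -0.66 (SE 0.133, adjusted p 0.00395) among AKO libraries and -1.28 (SE 0.119, adjusted p 0.000254) among controls. Ifit1 and Ifit2 had 0.09 (adjusted p 0.79) and -0.31 (adjusted p 0.143) among AKO libraries, and were lower in BAT among controls, with -0.83 (SE 0.224, adjusted p 0.0198) and -0.97 (SE 0.226, adjusted p 0.0114). The Ifit3 transcript is 97.8% identical to that of Ifit3b over 1700 bases, so reads of those 2 genes may have been shared out or dropped in counting.

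The OAS genes make oligoadenylates that activate RNase L, and the related Oasl1 and Oasl2 act in other ways on the same response. All 5 lie on chromosome 5, and 4 of the 5 were lower in BAT among AKO libraries and 5 of 5 among controls. Oasl2 stood at 10.5, 11.4 and 10.2 CPM in BAT AKO and 10.4, 12.1 and 10.8 CPM in BAT control, against 18.1, 11.5 and 19.9 CPM in WAT AKO and 25, 23.2 and 24.4 CPM in WAT control. WAT AKO 2 came close to the BAT level, and the log2 fold change was -0.55 among AKO libraries (SE 0.203, adjusted p 0.0495; 0.0601 with the replicate number as a block) and -1.13 among controls (SE 0.115, adjusted p 0.000356). Oas1a had -1.34 (SE 0.21, adjusted p 0.00114) and -1.42 (SE 0.303, adjusted p 0.00794). Its transcript is 97.6% identical to that of Oas1g over 1861 bases. Oas3 had low levels, 0.48, 0.147 and 0.433 CPM in BAT AKO and 0.373, 0.776 and 0.51 CPM in BAT control, against 4.37, 2.19 and 3.08 CPM in WAT AKO and 2.56, 3.21 and 1.87 CPM in WAT control. The fitted differences were -3.08 (SE 0.437, adjusted p 0.000686) and -2.19 (SE 0.376, adjusted p 0.00319). Since Oas3 passed the filter only through its WAT level, their direction was fixed in advance. Oas2 was lower in both genotypes, with -0.92 (adjusted p 0.0253) and -0.89 (adjusted p 0.046). Oasl1 had -0.83 among AKO libraries (adjusted p 0.097; 0.0167 with the replicate number as a block) and was lower among controls by 2-fold (adjusted p 0.0147).

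Isg15, a ubiquitin-like protein that is attached to other proteins, was called in neither depot comparison. It stood at 4.25, 4.41 and 3.6 CPM in BAT AKO and 4.4, 4.16 and 3.14 CPM in BAT control, against 4.46, 2.69 and 4.87 CPM in WAT AKO and 5.07, 4.5 and 4.55 CPM in WAT control. The AKO libraries overlapped between depots, and the BAT control libraries lay just below the WAT control libraries. The 95% interval of its log2 fold change of BAT over WAT ran from -0.47 to 0.68 among AKO libraries and from -0.79 to 0.23 among controls. Usp18, which removes Isg15 from proteins and dampens the type I interferon receptor, was at 3.77, 4.05 and 4.25 CPM in BAT AKO and 4.4, 3.95 and 4.16 CPM in BAT control, against 7.79, 6.23 and 11.9 CPM in WAT AKO and 5.27, 8.56 and 3.79 CPM in WAT control. BAT was even and WAT spread widely. Usp18 was lower in BAT among AKO libraries (-1.03, SE 0.246, adjusted p 0.00859), where the depots did not overlap. Among controls it had -0.51 (adjusted p 0.227), and WAT control 3 lay below every BAT control library.

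The other antiviral effectors held both extremes of the set. Mx1, a dynamin-like GTPase that traps viral nucleoprotein, was at 0.617, 0.662 and 0.577 CPM in BAT AKO and 1.12, 1.34 and 0.51 CPM in BAT control, against 13.4, 7.28 and 14.8 CPM in WAT AKO and 5.72, 9.33 and 6.52 CPM in WAT control. Mx1 lies at chr16:97447035-97462907 on the minus strand (GRCm38). Every BAT library lay far below every WAT library, with log2 fold changes of -4.16 (SE 0.322, adjusted p 3.62e-05) among AKO libraries and -2.86 (SE 0.396, adjusted p 0.00131) among controls. Since Mx1 passed the filter only through its WAT level, that direction was fixed in advance. Mx2, annotated as a polymorphic pseudogene and 94.8% identical to Mx1 over 920 bases, had -1.11 (adjusted p 0.0158) and -0.94 (adjusted p 0.0302). Rtp4, a chaperone of membrane receptors that interferon induces, had -0.30 among AKO libraries (adjusted p 0.128) and was lower in BAT among controls (-0.96, SE 0.132, adjusted p 0.0013). Ifi35 had -0.55 among AKO libraries (adjusted p 0.0572; 0.0487 with the replicate number as a block), and Ifi44 was lower among controls (-0.66, adjusted p 0.0446; 0.0584 with the block). Bst2 was called in neither comparison.

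Rsad2 was the exception in direction. It encodes viperin, an enzyme of the endoplasmic reticulum and lipid droplet surface that makes a chain-terminating nucleotide. It stood at 19.9, 23.3 and 42.7 CPM in BAT AKO and 27.1, 21.2 and 31.6 CPM in BAT control, against 12.9, 5.88 and 8.03 CPM in WAT AKO and 11.4, 9.52 and 28.6 CPM in WAT control. AKO libraries did not overlap between depots, while WAT control 3 reached into the BAT range. Rsad2 was higher in BAT among AKO libraries by 1.75 on the log2 scale (SE 0.371, adjusted p 0.00491), and in all 6 fits that left out a library. Among controls the value was 0.69 (SE 0.416, adjusted p 0.209). It came to 0.83 with the replicate number as a block (adjusted p 0.0269) and to 1.34 without WAT control 3 (adjusted p 0.00388). It came to 0.42 without WAT control 2 (adjusted p 0.411), to 0.50 without WAT control 1 (adjusted p 0.42) and to 0.49 without BAT control 1 and WAT control 1 (adjusted p 0.525). The sign was positive also on total counts without TMM, at 0.33 among controls. Rsad2 lies at chr12:26442746-26456452 on the minus strand (GRCm38), and its promoter window, shown above, holds the same core letters as those of Ifit3 and Isg15.

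The interferon-inducible GTPases act at the membranes around intracellular pathogens, and their median log2 fold change of BAT over WAT was -0.30 among AKO libraries and -0.20 among controls. Gbp7 had -0.30 among AKO libraries (adjusted p 0.0866) and was lower in BAT among controls (-0.87, SE 0.163, adjusted p 0.00463). Gbp2 and Igtp were lower among AKO libraries, with -0.32 (adjusted p 0.0325) and -0.69 (adjusted p 0.0162), and had -0.36 (adjusted p 0.0908) and -0.18 (adjusted p 0.38) among controls. Gbp3 and Irgm1 were called in neither comparison. A call in 1 genotype and not in the other does not show that the depot effect differs: the test of that difference, the interaction of depot and genotype, passed for 0 of the 32 genes.

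Psmb8, Psmb9 and Tap1 are neighbours in the major histocompatibility complex (GRCm38, chr17:34181987-34187764 for Psmb9 on the minus strand, chr17:34187553-34197225 for Tap1 and chr17:34197721-34201454 for Psmb8 on the plus strand), and their products cut and carry peptides for class I presentation: Psmb8 and Psmb9 are catalytic subunits of the immunoproteasome, and Tap1 is part of the peptide transporter into the endoplasmic reticulum. All 3 were lower in BAT among AKO libraries, and Tap1 also among controls. Tap1 stood at 36.8, 39.2 and 29.8 CPM in BAT AKO and 33.9, 50.1 and 30.3 CPM in BAT control, against 135, 106 and 177 CPM in WAT AKO and 60.6, 86 and 53 CPM in WAT control. The log2 fold change was -1.91 (SE 0.193, adjusted p 0.000128) among AKO libraries and -0.81 (SE 0.251, adjusted p 0.0324) among controls. Psmb8 and Psmb9 had -1.59 (SE 0.191, adjusted p 0.000304) and -1.31 (SE 0.192, adjusted p 0.000818) among AKO libraries. Among controls they had -0.89 (adjusted p 0.087; 0.0017 with the replicate number as a block) and -0.71 (adjusted p 0.0902; 0.00304 with the block). Without WAT control 2, the WAT control library rich in lymphocyte RNA, the control values became -0.57 for Tap1 (adjusted p 0.0795), -0.49 for Psmb8 and -0.44 for Psmb9.

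Genes with and without the promoter motif were both among the depot calls. Of the 15 genes with the response element core in the window, 5 were lower in BAT among AKO libraries and 7 among controls. Both counts include Oas3, which passed the filter only through its WAT level. Of the 11 genes whose window lacks the core, 6 and 7 were lower. Over all genes tested, 30.5% were lower in BAT among AKO libraries and 25.7% among controls. The 15 span from Oas3 at -3.08 to Rsad2 at 1.75 among AKO libraries.

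The question the study put to these tissues was how gene expression differs between Mcu fl/fl AKO mice and controls on a high-fat diet. In WAT, 0 of the 32 genes passed the threshold, with adjusted p-values from 0.109 to 0.931, where 3 of 15915 genes passed (0.0189%). At an unadjusted p under 0.05, 3 of the 32 were higher and 4 lower in WAT AKO, where 10.6% and 12% of all genes were. The median of the 32 was -0.01, against 0.00 over all genes. DESeq2 called 2 genes higher in WAT AKO, Tap1 at 1.05 (adjusted p 0.00126) and Psmb9 at 0.80 (adjusted p 0.0394), and none lower, where it called 700 of all 15915 genes higher and 979 lower. The groups did not overlap for 3 genes that stood higher and 4 that stood lower in WAT AKO, where 15.9% and 14.5% of all genes did not.

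The 3 antigen-processing genes all had positive log2 fold changes of AKO over control in WAT, and the 3 IFIT genes and 4 of 5 OAS genes had negative ones, none of them past the threshold. Tap1, with its values in WAT given above, had 1.04 (SE 0.24, adjusted p 0.109), and the lowest WAT AKO library lay above the highest WAT control. Psmb9 was at 42.1, 34.5 and 58.6 CPM in WAT AKO, against 21.6, 34 and 21.6 CPM in WAT control, with 0.79 (SE 0.253, adjusted p 0.156). Psmb8 was at 36.8, 27.9 and 43.1 CPM in WAT AKO, against 18.3, 32.9 and 15.9 CPM in WAT control, with 0.66 (SE 0.298, adjusted p 0.245). In each of these genes WAT control 2 was the highest control, and for Psmb8 it lay above WAT AKO 2. Igtp, a GTPase of the immunity-related family, had 0.55 (SE 0.18, adjusted p 0.163), at 24.9, 19.9 and 31.5 CPM in WAT AKO, against 16.4, 19.4 and 15.7 CPM in WAT control.

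Lymphocyte markers moved with the antigen-processing genes. The 8 B lymphocyte markers summed to 427 to 1017 CPM in WAT AKO, with 0 markers at 0 counts, against 2.63 to 346 CPM in WAT control, where 2 markers were at 0 counts in WAT control 1. The 11 T and NK markers summed to 242 to 440 CPM in WAT AKO and 14.1 to 259 CPM in WAT control, and 5 lymph node stroma markers to 194 to 365 CPM in WAT AKO and 3.69 to 136 CPM in WAT control. All 24 had positive fold changes, and 0 passed the threshold. Without WAT control 2, Tap1 rose by 1.25 (adjusted p 0.0252), Psmb8 by 1.02 (adjusted p 0.0296) and Psmb9 by 1.01 (adjusted p 0.0416) on the log2 scale in WAT AKO. In that fit 1066 of 16376 genes were called higher and 583 lower. With WAT control 2 as the only control, whose spread is then assumed to equal that of the WAT AKO libraries, they had 0.67 (adjusted p 0.536), 0.11 (adjusted p 0.926) and 0.38 (adjusted p 0.736). With the mean level of the B lymphocyte markers as a covariate they had 0.49 (adjusted p 0.698), -0.10 (adjusted p 0.95) and 0.19 (adjusted p 0.925). The summed B lymphocyte level was higher in every WAT AKO library than in any WAT control, so the covariate and the genotype cannot be told apart. The part of lymphocyte RNA in these values was not tested.

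**Figure D3:**
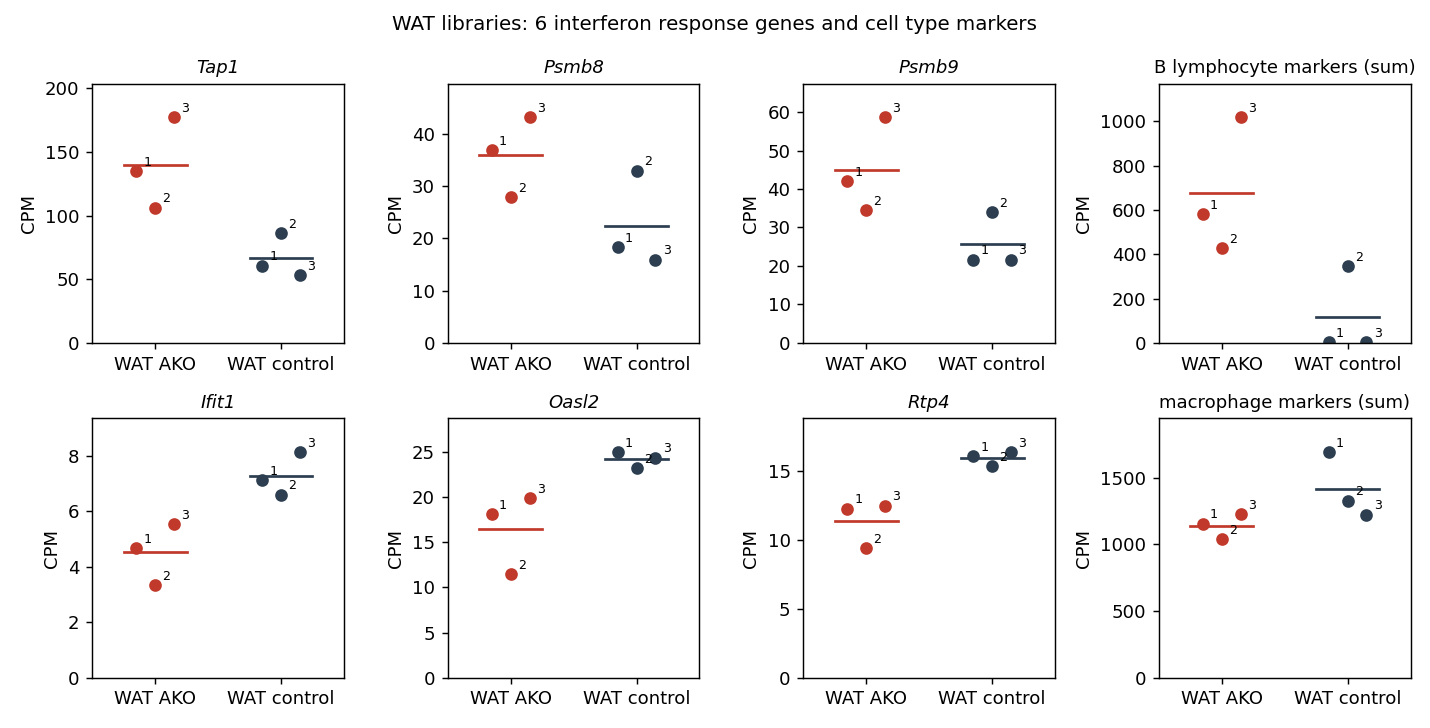
CPM in the 3 WAT AKO libraries (red) and 3 WAT control libraries (dark), each point a library with its replicate number and each line the group mean, for Tap1, Psmb8, Psmb9 and the summed B lymphocyte markers (top) and for Ifit1, Oasl2, Rtp4 and the summed macrophage markers (bottom). In the top row WAT control 2 is the highest control throughout, and in the bottom row of genes all WAT AKO libraries lie below all WAT control libraries.

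Ifit1, Oasl2 and Rtp4 had negative values and non-overlapping groups in WAT. Ifit1 stood at 4.67, 3.34 and 5.55 CPM in WAT AKO, against 7.13, 6.6 and 8.14 CPM in WAT control, with -0.71 on the log2 scale (SE 0.223, adjusted p 0.152). Oasl2 had -0.58 (SE 0.202, adjusted p 0.176), and WAT AKO 2 was the lowest library at 11.5 CPM. Rtp4 stood at 12.3, 9.42 and 12.5 CPM in WAT AKO, against 16.1, 15.4 and 16.4 CPM in WAT control, with -0.50 (SE 0.143, adjusted p 0.133). With the B lymphocyte covariate, which ran with the genotype, the values were -0.62 for Ifit1, -0.59 for Oasl2 and -0.48 for Rtp4. The part of lymphocyte RNA in them was not tested. Macrophage markers lay in the same direction, at 1155, 1038 and 1225 CPM in WAT AKO, against 1692, 1329 and 1224 CPM in WAT control, with 8 of 9 negative, a median of -0.62 and 0 called. Their part in the IFIT and OAS values was not tested. WAT AKO 2, the library with most muscle RNA, was the lowest of its group for 30 of the 32 genes, where 42.8% of all genes were lowest in it. Without it and WAT control 1, Ifit1 had -0.57, Oasl2 -0.36 and Rtp4 -0.39, none of them past the threshold.

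In BAT, 0 of the 30 genes tested passed the threshold, with adjusted p-values from 0.225 to 0.993, where 11 of 14265 genes passed (0.0771%), 0.0491% higher and 0.028% lower. Mx1 and Oas3 had too few counts to be tested in BAT. At an unadjusted p under 0.05, 3 of the 30 were higher and 0 lower in BAT AKO, where 7% and 6.62% of all genes were, and DESeq2 called 1 gene, Gbp7 at 0.66 (adjusted p 0.0207), where it called 134 of all 14265 genes higher and 144 lower. Gbp7 stood at 16.6, 15.2 and 17.4 CPM in BAT AKO, against 10.4, 11.9 and 9.19 CPM in BAT control, and the groups did not overlap; 4 of the 30 genes stood clear above BAT control and 0 below, where 8.19% and 11.5% of all genes did. Its edgeR value was 0.66 (SE 0.135, adjusted p 0.225), a fold change of 1.58. A stretch of 637 bases of the Gbp7 exons is shared with the gene model Gm43802 on the same strand. Ifit2 stood at 9.54, 9.86 and 8.36 CPM in BAT AKO, against 7.16, 7.19 and 6.34 CPM in BAT control, with 0.45 (SE 0.15, adjusted p 0.319), again without overlap.

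The remaining BAT values with the smallest p were those of Gbp3 at 0.32, Ifih1 at 0.35, Irgm1 at 0.21 and Ifit3 at 0.25, with adjusted p-values of 0.359, 0.399, 0.409 and 0.441. The 3 IFIT genes all had positive values in BAT and the 4 OAS genes tested all had negative ones, none of them past the threshold. Tap1, Psmb8 and Psmb9 had -0.09, -0.07 and 0.15 in BAT, with standard errors of 0.202 to 0.288. B lymphocyte markers summed to at most 5.98 CPM in BAT AKO and 11.8 CPM in BAT control. The library at 11.8 CPM, BAT control 2, was also the highest control for Tap1, Psmb8 and Psmb9. The macrophage markers were at 228, 263 and 295 CPM in BAT AKO, against 409, 299.6 and 331 CPM in BAT control, with 7 of 9 negative and 0 called.

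**Figure D4:**
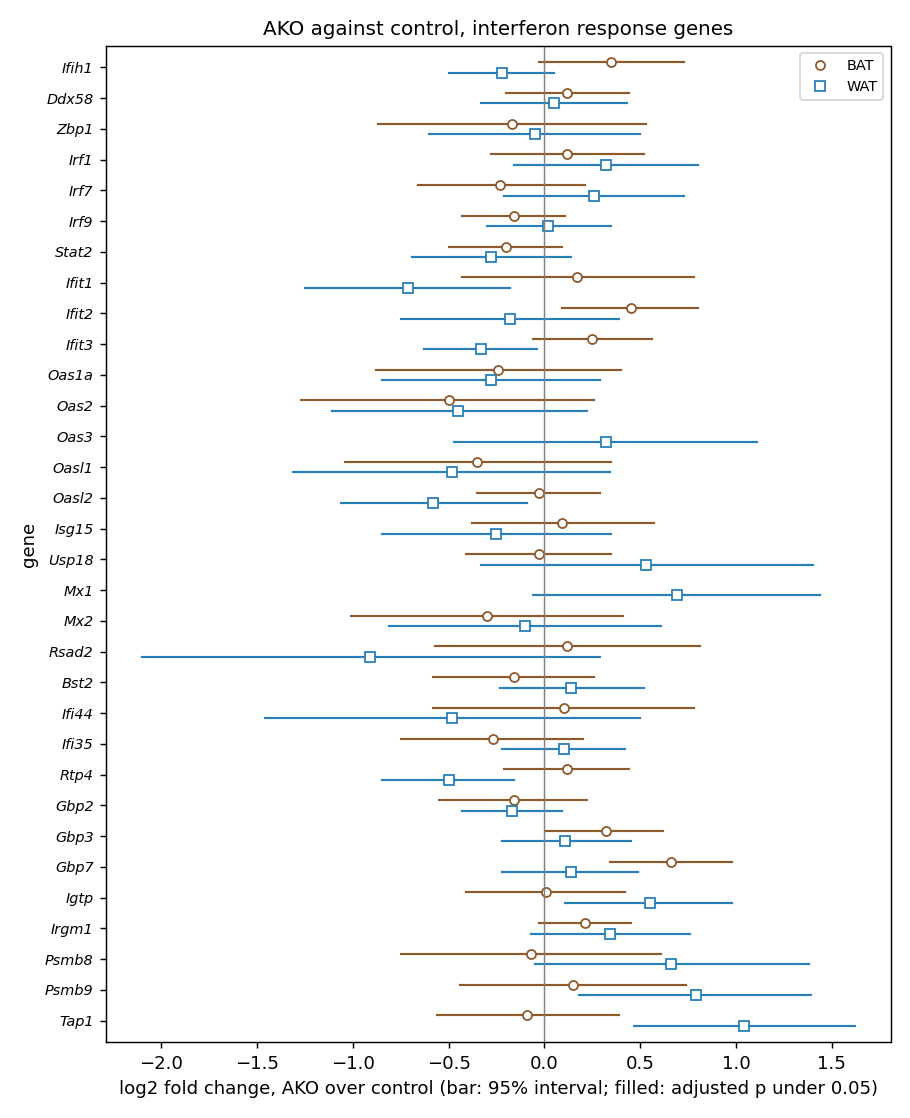
Log2 fold change of AKO over control for each of the 32 genes in BAT (brown circles, 3 AKO against 3 control) and in WAT (blue squares, 3 against 3), with bars for the 95% interval; open symbols mark an adjusted p of 0.05 or more, and Mx1 and Oas3 were tested in WAT alone. No symbol is filled, Tap1 lies farthest right in WAT and Gbp7 in BAT, and Psmb8, Psmb9 and Tap1 lie right of 0 in WAT.

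The AKO effect in BAT minus the AKO effect in WAT was tested over all 12 libraries, and 0 of the 32 genes passed, with adjusted p-values from 0.132 to 1, where 45 of 16391 genes passed (0.275%). At an unadjusted p under 0.05, 5 of the 32 had a positive and 2 a negative difference, where 8.34% and 10.1% of all genes did. Tap1 had the smallest p, with a difference of -1.18 (SE 0.348, adjusted p 0.132). Without WAT control 2 that difference was -1.40 (adjusted p 0.0398), in a fit that called 242 of 16790 genes positive and 681 negative. Ifit3 had 0.54 (SE 0.167, adjusted p 0.142), Rtp4 0.58 (SE 0.19, adjusted p 0.158), Ifih1 0.53 (SE 0.198, adjusted p 0.195), Mx1 -1.39 (SE 0.525, adjusted p 0.199) and Gbp7 0.49 (SE 0.198, adjusted p 0.224). DESeq2 called Ifit3 at 0.60 (adjusted p 0.0412) and Tap1 at -1.11 (adjusted p 0.032), where it called 615 of 16391 genes positive and 350 negative.

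Genes upstream of and around the 32 were counted over lists of their own. The 13 interferon genes examined, among them Ifnb1 and Ifng, were nearly unread: Ifng had 4 counts in all 12 libraries together and at most 2 in 1 library, Ifnb1 had 0, and none passed the filter. Among controls the kinases Jak1 and Jak2 were lower in BAT, with -0.60 (adjusted p 0.00658) and -0.48 (adjusted p 0.015). The receptor subunit Ifnlr1 had 2.54 there (adjusted p 0.000581), but it passed the filter only through its BAT level and so had to be higher in BAT. It had 24, 27 and 22 counts in BAT control, against 5, 7 and 6 in WAT control. In BAT AKO it had 20, 13 and 21 counts, against 24, 16 and 13 in WAT AKO. Of 18 upstream receptors and adaptors, 2 were higher and 12 lower in BAT among AKO libraries, and 3 and 9 among controls. Over all genes tested, 28.8% were higher and 30.5% lower among AKO libraries, and 24.4% and 25.7% among controls. Aim2 in both genotypes and Tlr9 among controls passed the filter only through their WAT level and so had to be lower in BAT. Mavs, the mitochondrial adaptor of Ifih1 and Ddx58, was higher in BAT in both, by 1.42 (adjusted p 4.68e-05) and 1.34 (adjusted p 0.000968). It stood at 135, 118 and 143 CPM in BAT AKO and 119, 144 and 101 CPM in BAT control, against 46.7, 52.1 and 56.7 CPM in WAT AKO and 48, 54.4 and 40.3 CPM in WAT control.

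Among 54 other interferon-induced genes, 6 were higher and 32 lower in BAT among AKO libraries. Among controls 3 were higher and 32 lower of 52 tested. The medians were -0.63 and -0.69. Over all genes tested, 30.5% were lower and 28.8% higher among AKO libraries, and 25.7% and 24.4% among controls. Oas1g, Ms4a4c, Apol9a and Apol9b passed the filter only through their WAT level in both genotypes and so had to be lower in BAT. So did Ifit1bl1 and Gbp8 among AKO libraries and Gbp10 and Gbp11 among controls. Ifi27l2a was lower, with log2 fold changes of -2.71 (adjusted p 1.68e-05) and -2.92 (adjusted p 0.000114), and Ifi27 was higher, with 2.13 (adjusted p 1.65e-05) and 1.83 (adjusted p 0.000123). Of 12 class I presentation genes, 9 were lower and 0 higher in BAT in both genotypes, among them the shared light chain B2m, with -1.33 (adjusted p 0.000174) and -1.78 (adjusted p 0.000109). Of 8 tested genes that restrain the response, 6 were lower and 1 higher among AKO libraries, and 5 and 1 among controls. Among AKO libraries Socs1 passed the filter only through its WAT level and so had to be lower in BAT. Between AKO and control, in BAT, in WAT and for the difference between them, 0 genes of these lists passed the threshold in edgeR's test.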

How the data were processed

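Inguinal white and brown adipose RNA was measured in 12 libraries, grouped and numbered by their titles. Libraries were made with a VAHTS Universal V6 kit after TRIzol extraction, per the labels' protocols. The authors deposited whole-number read counts per Ensembl gene, not normalised, and FPKM values, which are those counts divided by library total and a constant per gene. Bowtie2 2.2.3, HISAT2 2.1.0, HTSeq 0.6.0 and mm10 are named in the submitters' processing notes; the strand setting is not given in the sources used here, so reads of overlapping genes on opposite strands (Psmb9 and Tap1 share 212 exon bases, Psmb8 and Gm20496 498, Ifi35 and Gm11626 290) cannot be told apart.

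Symbols and coordinates come from GENCODE M21 (GRCm38). Genes were filtered with filterByExpr (minimum count 10, minimum total 15) and tested with edgeR 4.0.16 in R 4.3.3 (TMM, quasi-likelihood F-test, Benjamini-Hochberg, threshold 0.05), over 6 libraries per comparison and 12 for the difference of effects. CPM levels use TMM factors over all 12 libraries. The scripts were tested on simulated data. DESeq2 1.42.0, limma 3.58.1 (voom, and log2 FPKM with pseudocounts of 1 and 0.1), other filters, scalings and left-out libraries were alternatives.

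The 32 genes, the lists and the alternatives were chosen with earlier results of these data known. Genes named per comparison were the called ones with the smallest p, at most 12, or the 6 with the smallest p where none was called; others are named to account for a family. Replicate numbers may pair the depots, but the main depot fits took the libraries as unpaired. Results with the replicate number as a block are given as an alternative. Over 11079 genes, deviations of same-numbered BAT and WAT libraries correlated at 0.719, 0.757 and 0.165 among AKO libraries. Among controls the values were 0.655, 0.262 and 0.568. All lay above 0.1, a sign from the data and not from the labels. BAT AKO 3, at 0.165, correlated more with a WAT AKO library of another number. Replicates differed by more than sampling noise (chi-square per degree of freedom 16.5 to 83.4).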

Additional observations from a re-analysis of the deposited data

How the results depend on the processing

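Genes chosen by smallest p, 6 for each genotype comparison and for the difference between depots and 12 for each depot comparison, kept their sign across the alternatives. Other genes crossed 0: Psmb8 in WAT had -0.10 with the B lymphocyte covariate, and Ifit1 between AKO depots spanned -0.13 to 0.26 with a library left out. Counts of the 32 genes called kept within 1.5 times the counts given, apart from the following. For AKO over control, DESeq2 called 2 genes higher in WAT and 1 in BAT, and 1 positive and 1 negative for the difference between depots. The edgeR fit of all 12 libraries called 1 in WAT (Tap1, 1.07, adjusted p 0.0346), where it called 439 of 16391 genes higher and 591 lower. Leaving out 1 library gave 0 to 3 higher in WAT, 0 in BAT, and 0 to 1 negative for the difference between depots. For BAT against WAT, the counts lower among AKO libraries became 28 without TMM, 28 on log2(FPKM + 1), 27 on log2(FPKM + 0.1) and 26 on genes with a mean of at least 1 FPKM. In those settings 55.9%, 55%, 55.4% and 55.7% of all genes were lower. With a library left out 11 to 20 were lower, where 25.6% to 29.5% of all genes were. Among controls, 1 gene was higher (Rsad2) with the replicate block and with WAT control 2 as the only WAT control, and 0 to 1 were higher and 12 to 18 lower with a library left out. Lower counts there became 29 without TMM, 29 on log2(FPKM + 1), 29 on log2(FPKM + 0.1), and 10 without the libraries richest in muscle RNA. In those settings 41.6%, 39.6%, 40.5% and 15.4% of all genes were lower, and 19% to 23.5% with a library left out. FPKM carries no TMM scaling, so these follow the unscaled counts. With the replicate block the depot counts were 17 lower and 1 higher among AKO libraries and 21 lower and 1 higher among controls. There 30% and 28.3% of all genes were lower. Calls of the 32 genes other than those given beside their genes did not change. Between genotypes same-numbered libraries correlated between -0.775 and 0.299. Those numbered 3 were above 0.1, at 0.299 in WAT and 0.182 in BAT, and the others were not. The block gave 0 calls in WAT, in BAT and for the difference. With 3 libraries per group the standard errors of the 32 genes limit what a missed threshold can say.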

Other observations

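Within groups the 32 genes tended to be high or low together by library. WAT AKO 3 was the highest of its group for 23 of the 32 genes, where it was the highest for 41.8% of all genes. BAT AKO 3 was the lowest of its group for 25, against 33.6% of all genes, and BAT control 2 was the highest of its group for 20, against 37.3%. WAT control libraries showed no single direction, with 5, 14 and 13 genes highest in WAT control 1, 2 and 3, and 5, 16 and 11 lowest. Of all genes 30.2%, 37.4% and 32.4% were highest in them, and 31.1%, 33.5% and 35.4% lowest. The summed level of the 32 genes was 530.5, 527 and 465 CPM in BAT AKO and 480.5, 573 and 486 CPM in BAT control, and 852, 679 and 995 CPM in WAT AKO and 727, 757 and 718 CPM in WAT control.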
